A study of Mus musculus with 30 samples.

Results

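The cystatins and lysosomal cathepsins of microglia were examined as a set of 10 genes, chosen by symbol from the 24888 rows of a mouse expression table: Cst3, Cst7, Ctsb, Ctsc, Ctsd, Ctsh, Ctsl, Ctss, Ctsz and Lgmn. All 10 were present once, and all 10 were among the 11759 genes that passed the filter on low values. Microglia, macrophages that live in the brain and spinal cord, were taken from the lower lumbar cord of C57BL/6J mice by selecting cells with CD11b on their surface. Monocytes and neutrophils carry this integrin too. The 30 libraries were made by Smart-Seq2, which copies whole transcripts into cDNA, and the deposited values are FPKM, in which the fragments of a gene are divided by transcript length and by the total of the library.

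The libraries fell into 12 groups. After sciatic nerve transection (SNT), which cuts the nerve, there were 2 libraries each at 1, 2, 4 and 7 days post injury (dpi). After chronic constriction injury (CCI), in which the nerve is tied loosely, there were 2 each at 2 and 7 dpi, and after spared nerve injury (SNI), which leaves 1 branch intact, there were 2 at 7 dpi. Morphine was given chronically on a fixed schedule (morphine_fixed, 4 libraries) or an escalating one (morphine_escalating, 3 libraries). The controls had saline on the fixed schedule (saline_fixed, 4 libraries), saline on the escalating schedule (saline_escalating, 3 libraries) or neither treatment nor injury (naive, 2 libraries). The labels give no morphine dose, no age and no sham operation, and they do not say whether libraries of a group came from separate mice, so p-values measure the spread between libraries, which may be technical.

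Cathepsins are the proteases of the lysosome. Most are cysteine proteases, whereas cathepsin D is an aspartic protease, and legumain cleaves after asparagine and processes other cathepsins into their mature chains. Cystatins are small inhibitors that occupy the active site of cysteine proteases: cystatin C, encoded by Cst3, is secreted, and cystatin F, encoded by Cst7, reaches lysosomes and acts there on cathepsin C, among others. In microglia these enzymes degrade engulfed material and trim antigens, and secreted cathepsin S has been described as a contributor to pain after nerve injury through cleavage of the chemokine fractalkine.

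The genes are scattered over 7 chromosomes. In the mm10 build Cst3 occupies chr2:148871722-148875692 on the minus strand with 3 exons in its longest transcript, and Cst7 occupies chr2:150570415-150578944 on the plus strand with 4 exons. Ctsz lies on the same chromosome at chr2:174427493-174439039, minus strand, and Ctsc and Ctsd share chromosome 7, at chr7:88278085-88310888 on the plus strand and chr7:142375911-142388038 on the minus strand. Ctss is at chr3:95526786-95556403, plus strand, Ctsh at chr9:90054152-90076089, plus strand, and Ctsl at chr13:64359337-64370890, minus strand. Lgmn is at chr12:102394084-102439813, minus strand, and Ctsb at chr14:63122462-63145923, plus strand. Exons of Ctsb overlap those of Fdft1 on the opposite strand by up to 774 bases, and Ctsl overlaps Gm47123 by up to 977 bases on the opposite strand and Gm49230 by up to 395 bases on its own. Ctsd overlaps Gm49369 by up to 227 bases on its own strand, and Ctsz overlaps Nelfcd by 10 bases on the opposite strand. Nothing in the sources used here says that the counting used strand, so fragments from these shared stretches cannot be told apart.

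Sequences upstream of the start were available in RefSeq (GRCm38.p6) for 8 of the 10 genes, in 9 windows of 250 bases, since Lgmn has a pair of starts. Those of Ctsb and Ctsh are not shown. The windows below belong to both cystatins, which differ most in level, and to the 3 proteases that either stood at the top of the range (Ctsd, Ctss) or ran most opposite to Cst3 across libraries (Ctsc). Each is written 5′ to 3′ on the strand of its gene and ends at the base before the RefSeq start. Capitals mark matches on either strand to CACGTG, the E-box core that the lysosomal regulator TFEB recognises, to AGGAAGT or its longer form GAGGAAGT, which the myeloid factor PU.1 recognises, and to GGGCGG, the GC box.
Cst3 (chr2:148875513-148875762): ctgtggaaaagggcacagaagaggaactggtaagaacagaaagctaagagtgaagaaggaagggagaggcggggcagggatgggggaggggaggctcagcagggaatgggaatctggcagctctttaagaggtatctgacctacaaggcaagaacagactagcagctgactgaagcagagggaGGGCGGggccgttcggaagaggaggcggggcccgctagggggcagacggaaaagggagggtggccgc
Cst7 (chr2:150570165-150570414): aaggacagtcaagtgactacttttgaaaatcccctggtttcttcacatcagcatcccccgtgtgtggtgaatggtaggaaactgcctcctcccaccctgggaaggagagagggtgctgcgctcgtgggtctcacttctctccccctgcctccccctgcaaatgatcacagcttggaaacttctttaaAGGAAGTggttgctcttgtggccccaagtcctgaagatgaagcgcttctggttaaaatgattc
Ctss (chr3:95526536-95526785): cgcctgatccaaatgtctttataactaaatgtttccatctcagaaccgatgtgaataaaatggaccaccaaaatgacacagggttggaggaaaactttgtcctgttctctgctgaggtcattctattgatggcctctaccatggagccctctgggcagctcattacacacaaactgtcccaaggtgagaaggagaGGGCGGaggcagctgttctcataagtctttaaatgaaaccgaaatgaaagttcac
Ctsd (chr7:142387828-142388077): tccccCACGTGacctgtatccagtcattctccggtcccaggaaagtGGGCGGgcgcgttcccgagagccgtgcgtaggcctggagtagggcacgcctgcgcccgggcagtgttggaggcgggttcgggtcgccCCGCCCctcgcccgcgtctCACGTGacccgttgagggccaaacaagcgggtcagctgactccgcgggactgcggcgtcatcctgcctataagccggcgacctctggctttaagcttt
Ctsc (chr7:88277835-88278084): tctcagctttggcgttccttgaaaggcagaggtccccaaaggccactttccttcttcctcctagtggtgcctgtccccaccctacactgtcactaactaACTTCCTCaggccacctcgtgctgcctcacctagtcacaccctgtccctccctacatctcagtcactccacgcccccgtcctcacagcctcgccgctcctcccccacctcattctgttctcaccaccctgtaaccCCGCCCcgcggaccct

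Ctsd carried CACGTG at 245 and again at 98 bases before the start. The same letters stood 236 bases before the RefSeq start of Ctsl and 49 bases before the second RefSeq start of Lgmn. So 3 of the 9 windows held them, against 6.021% of 32851 mouse windows of the same length. By the gene positions given above, the Ctsl window (chr13:64370521-64370770) and the second Lgmn window (chr12:102439093-102439342) lie inside their genes. The windows of Cst3 and Ctsd and the first of Lgmn lie partly inside. AGGAAGT stood 63 bases before the start of Cst7 and 151 bases before that of Ctsc, where it was part of GAGGAAGT on the reverse strand. AGGAAGT was present in 7.686% and GAGGAAGT in 2.441% of all windows. GGGCGG was found in 6 of the 9 windows, including those of Cst3, 67 bases before the start, and Ctss, 55 bases before it, and in 32.74% of all windows. A match is a description of the letters and not of a bound site.

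The level of Cst3 was the highest of any gene tested in the median over the 30 libraries, at 39872 FPKM, with a range of 10120.4 to 95123 FPKM. It alone made up 3.16% to 20.1% of the summed FPKM of a library. Ctss followed at a median of 6249 FPKM and Ctsd at 5541 FPKM, which ranked 3 and 5 among the 11759 genes. Lgmn stood at 1528 FPKM, Ctsz at 888 FPKM and Ctsb at 497 FPKM. Ctsl at 429 FPKM, Ctsh at 363 FPKM and Ctsc, which encodes the dipeptidyl peptidase that activates granule serine proteases in other leukocytes, at 190 FPKM came next. Cst7 was at 16.2 FPKM and ranked 2963. FPKM divides by transcript length, which puts the genes on a common scale. Differences between libraries still ran with transcript length, as described below, and some exons are shared with other genes. Comparisons of level between genes are therefore approximate.

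Part of the order was the same in every library. Cst3 was the highest and Cst7 the lowest of the 10 genes in 30 of 30 libraries, and Lgmn always ranked 4 and Ctsz 5 among the 10. Ctss and Ctsd exchanged places, with Ctss above Ctsd in 17 libraries, and their means over the 30 libraries, 5993 ± 1364 and 5478 ± 1318 FPKM (SD, n = 30), differed by less than their spread. Ctsb, Ctsl and Ctsh, at 540.0 ± 155, 432 ± 63.7 and 376 ± 101 FPKM (SD, n = 30), overlapped in the same way. Ctsl was the steadiest gene, with its highest library 1.89 times its lowest, and Cst3 the least steady, with a ratio of 9.40. On the log2(FPKM + 1) scale, differences between the 12 groups held 82.3% of the sum of squares of Cst3, 75.9% of that of Ctsh and 69.6% of that of Ctss, but 34.5% of that of Lgmn. With 12 groups among 30 libraries, group means take up a part of any sum of squares by chance. For Lgmn the SD within groups, 0.384, was no smaller than the SD over all libraries, 0.373.

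**Figure D1:**
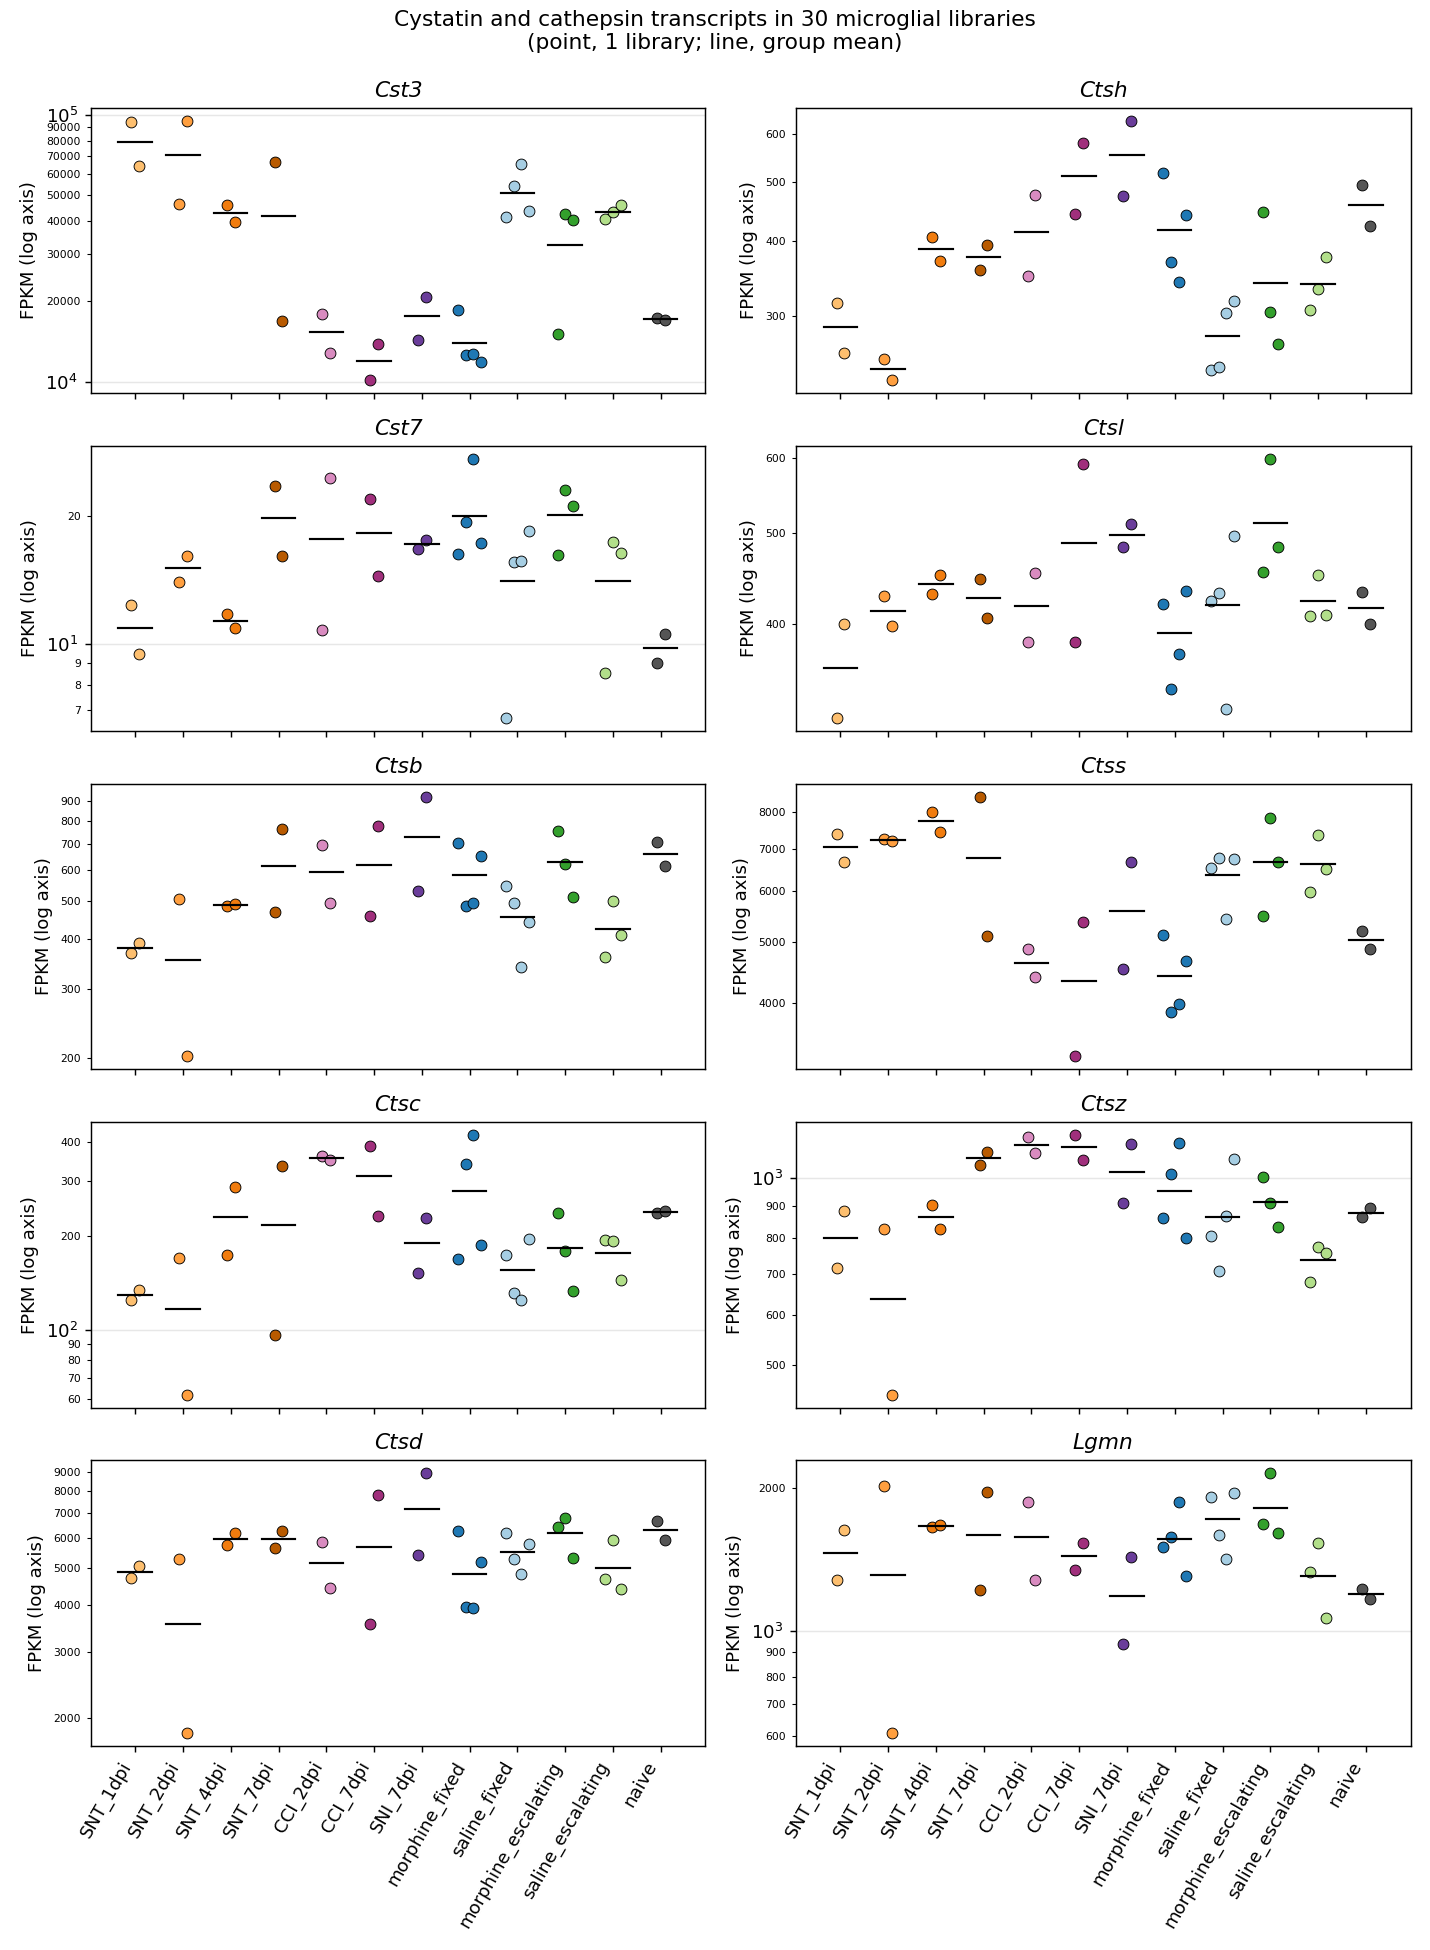
FPKM (log axis, a separate range in each panel) of the 10 genes in the 30 libraries, by group; each point is 1 library and each line a group mean. Cst3 spans 10120.4 to 95123 FPKM, and its CCI, SNI, morphine_fixed and naive libraries all lie at or below 20827 FPKM.

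Clearly fewer genes than in the rest were detected in 3 libraries, counted at 1 FPKM or more: replicate 1 of SNT_1dpi with 8005, replicate 1 of SNT_7dpi with 8466 and replicate 2 of SNT_2dpi with 8763, against 9215 to 10427 in the other 27. The summed FPKM of the 30 libraries ran from 298889 to 491729, and replicate 1 of SNT_1dpi had the highest sum. The files hold no read counts, so the depth of the libraries is unknown. Defining microglial genes were high throughout, with P2ry12 at 562 to 1550 FPKM, Tmem119 at 262 to 1443 FPKM and Cx3cr1 at 345 to 1439 FPKM. Neutrophil genes were also present in every library, with S100a8 from 326 to 30884 FPKM. Among genes of T and natural killer (NK) cells, Cd3e and Cd3g were listed at 0 in 27 of 30 libraries each and Cd3d in 13. Gzma was at 0 in 9 and reached 11.3 FPKM, and Nkg7 was at 0 in 1 and reached 21.1 FPKM. The listed T and NK cell genes summed to 0.184 to 30.1 FPKM a library.

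Cst3 values fell into a lower and an upper range with nothing between 20827 and 39503 FPKM, a step of 1.90 times. The lower range held 14 libraries: all 4 of morphine_fixed, all 4 of CCI, both of SNI_7dpi and both naive ones, replicate 2 of SNT_7dpi and replicate 1 of morphine_escalating. The upper range held 16: all 7 saline libraries, the other 7 of SNT and the other 2 of morphine_escalating. SNT_7dpi, at 66554 and 16911 FPKM, and morphine_escalating, at 15103, 42604 and 40240.2 FPKM, therefore held libraries of both kinds. The 9 controls did too, since the naive libraries had 17341 and 16975 FPKM and the saline ones 40841 FPKM or more.

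Set against the sum of the 8 proteases, Cst3 amounted to 0.771 to 1.19 times that sum in the 14 lower libraries and to at least 2.2 times in the 16 upper ones, with 8.65 in replicate 2 of SNT_2dpi. The ratio of Ctss to Ctsd was at most 1.02 in the lower libraries and at least 1.06 in the upper ones. The protease sums of the lower and upper libraries overlapped. These ranges were read off the values themselves and are a description without a test.

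**Figure D2:**
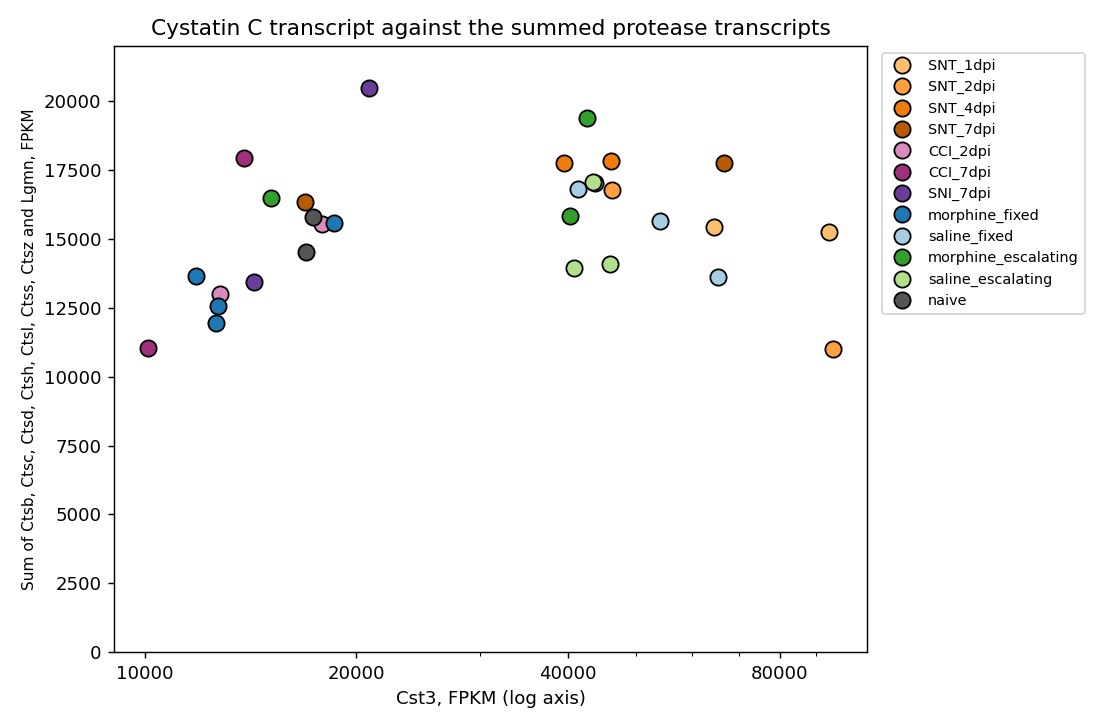
Summed FPKM of the 8 proteases (vertical axis) against Cst3 FPKM (horizontal, log axis) in 30 libraries coloured by group. The 14 libraries at or below 20827 FPKM of Cst3 and the 16 at or above 39503 FPKM overlap in their protease sums.

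Fixed morphine was compared with fixed saline to ask what differed between them on that schedule. Cst3 was lower under fixed morphine than under fixed saline and was the only gene of the set to pass the test. Cst3 had 18574.5, 12641.5, 12708.5 and 11845.5 FPKM in the morphine_fixed libraries, against 41317, 54112, 65263 and 43669 FPKM in the saline_fixed ones. The groups were far apart, with means of 13943 ± 3113 and 51090.3 ± 10964 FPKM (SD, n = 4 each). The difference was -1.87 ± 0.40 (log2, SE), a level 0.273 times that under saline, at an adjusted p of 0.0102 in limma's moderated test with Benjamini-Hochberg adjustment over 11759 genes. The 1 gene of 10 stands against 18% of all genes tested that were called in this comparison. The naive libraries, at 17341 and 16975 FPKM, lay within the morphine_fixed range. Whether Cst3 was lowered with morphine or raised in the saline libraries was not tested. In bulk RNA, fewer cells of a type and less RNA per cell cannot be told apart.

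The call did not hold without the filter on low values, where the adjusted p in limma was 0.668 over 17489 genes. The difference there was again -1.87, but its SE was 2.42 instead of 0.40. Nor did the call hold with the naive libraries in place of saline, where the difference was -0.32 and no gene of 11759 was called. With the replicate number fitted as a block, the difference was -1.75 ± 0.88 (log2, SE) with an adjusted p in limma of 0.483. The labels number the saline libraries on from the naive ones and each morphine group from its own start. A shared number therefore need not pair libraries, and the block fit cannot decide whether the call holds. Under quantile normalization, which gives the top gene of every library the same value, the difference of Cst3 was 0. Without rescaling, the median difference of all genes was 0.22, and relative to it Cst3 stood at -2.09. Under median-ratio scaling, TPM rescaling and TPM rescaling without Cst3 the relative value lay between -2.15 and -2.10.

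Among the proteases, the groups did not overlap for Ctss and Ctsh. With Cst3 that made 3 of 10 genes, against 29.6% of all genes tested. Ctss had 5117, 3871, 3989 and 4661 FPKM in the morphine_fixed libraries and 6530.1, 6771, 5424 and 6749 FPKM in the saline_fixed ones. All 4 morphine libraries were lower, by -0.53 ± 0.23 (log2, SE), but the adjusted p in limma was 0.119, and under quantile normalization the difference was 0.070. Ctsh, an aminopeptidase that trims peptides, had 517, 368, 341 and 441 FPKM in the morphine_fixed libraries and 244, 247, 303 and 318 FPKM in the saline_fixed ones. All 4 morphine libraries were higher, by 0.57 ± 0.20, with an adjusted p in limma of 0.0584, whereas with naive libraries in place of saline the difference was -0.15.

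The other 7 genes overlapped between these groups. Ctsc was at 169, 340.2, 423 and 187 FPKM under fixed morphine and 173, 131, 125 and 195 FPKM under fixed saline. Replicates 2 and 3 of the drug group were the high ones, and the difference of 0.76 ± 0.29 had an adjusted p in limma of 0.0833. Cst7, the cystatin that inhibits cathepsin C, averaged 20.0 ± 4.98 FPKM under fixed morphine and 14.1 ± 5.11 FPKM under fixed saline (SD, n = 4 each), with an adjusted p in limma of 0.226. Ctsb was at 584 ± 110 against 456 ± 87.2 FPKM and Ctsz, a carboxypeptidase, at 954 ± 152 against 864 ± 155 FPKM. The differences of Ctsd, Ctsl and Lgmn were -0.21 ± 0.24, -0.09 ± 0.17 and -0.14 ± 0.21. None of these passed the test.

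**Figure D3:**
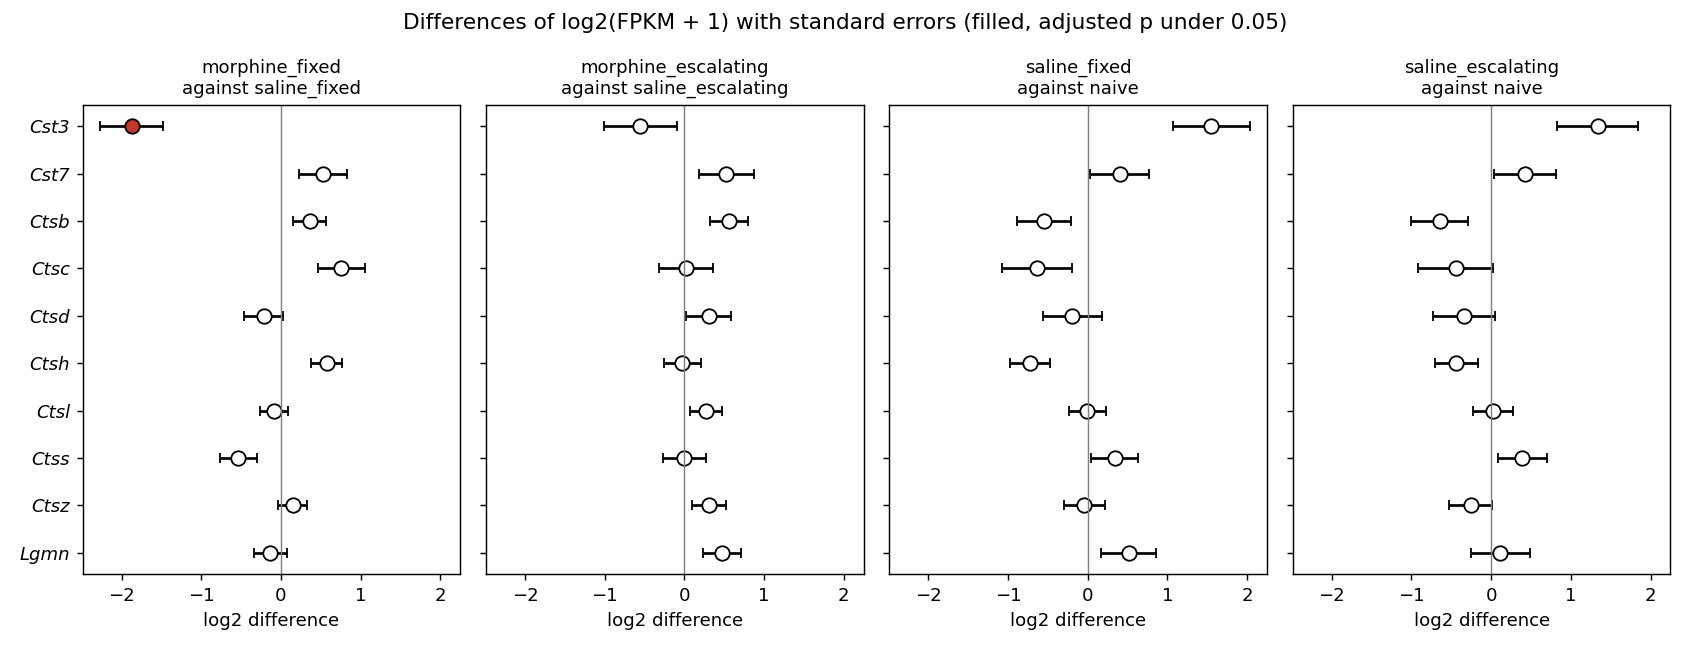
Difference of log2(FPKM + 1) with its standard error (horizontal axis) for the 10 genes in 4 comparisons, each titled with the treated group before its control. Cst3 under fixed morphine, at -1.87, is the only filled point, which marks an adjusted p under 0.05; it lies at 1.55 and 1.34 for the saline groups against naive.

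Other measures moved with Cst3 in this comparison. Of the 6674 genes whose mean reached 5 FPKM, the 6450 with an annotated length were sorted by their longest transcript and split into 10 bins of 645. The median difference between fixed morphine and fixed saline ran from -0.53 in the shortest bin, of 123 to 1273 bases, to 0.62 in the longest, of 5792 bases or more. Cst3 is among the shortest at 860 bases, and its difference lay far below the median of that bin. Ctss has 1355 bases, and Ctsh and Ctsc, which stood higher, have 2743 and 3220 bases. Cst7, at 986 bases, is as short as Cst3 and had a positive difference of 0.53. The longest annotated transcript need not be the one expressed, as for Ctsl, with 6168 bases. The part of length in these differences was not tested.

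**Figure D4:**
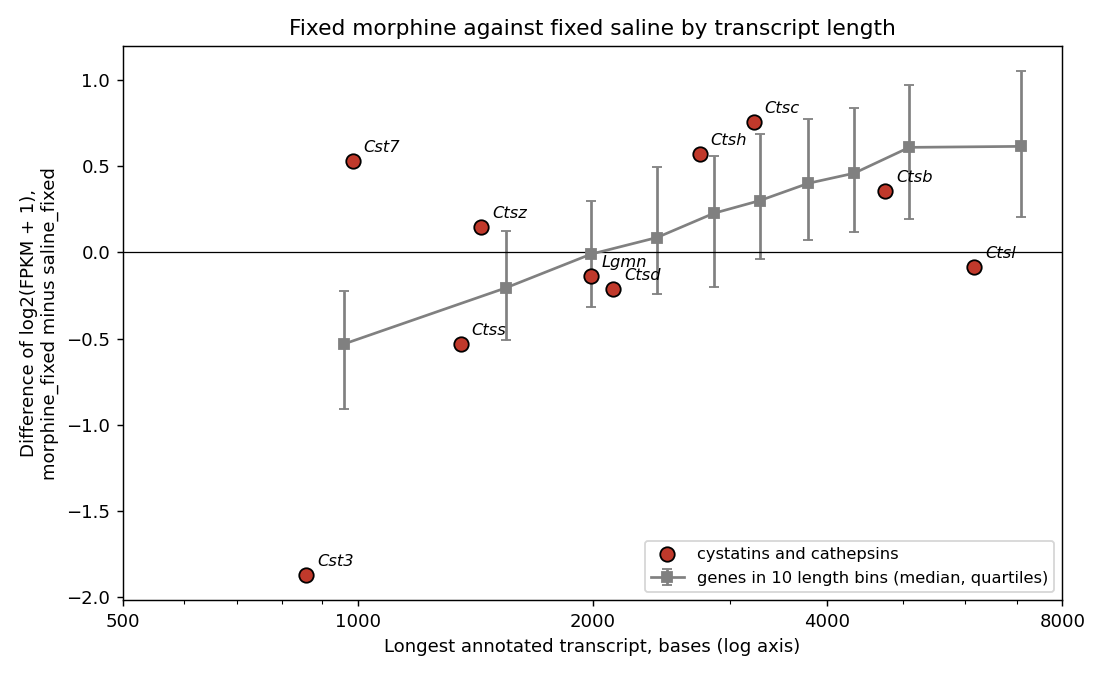
Difference of log2(FPKM + 1), morphine_fixed minus saline_fixed (vertical axis), against longest annotated transcript in bases (horizontal, log axis); red points are the 10 genes, and grey squares with bars are medians and quartiles of 10 bins of 6450 genes. Bin medians run from -0.53 to 0.62, and Cst3 lies at -1.87.

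Neutrophil markers were lower as well: the differences of all 13 tested were negative, with a median of -1.90, and 3 passed the test (S100a8, Camp and Ctsg, the granule protease cathepsin G), against 4.46% of all genes tested that were called lower. Their summed level was 1846 to 18972 FPKM in the morphine_fixed libraries and 7404 to 28973 FPKM in the saline_fixed ones. The morphine library with the highest neutrophil sum, replicate 4, had the lowest Cst3 of its group. Of 11 monocyte markers 3 were higher and none was called, and the 14 homeostatic microglial genes summed to 11646 to 15065 FPKM under morphine and 14149 to 17392 FPKM under saline. No marker of the neutrophil list but Elane, Mpo, Prtn3 and Ctsg was listed at 0 in any library. The part of these cells in the difference of Cst3 was not tested.

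Other lysosomal genes were called in both directions under fixed morphine. Of 84 tested genes for hydrolases and cofactors, membrane proteins, vacuolar ATPase subunits, and sorting and transcription factors, 11 rose and 7 fell, against 13.6% and 4.46% of all genes tested, so the rises were no more frequent than over the whole table. Among hydrolases, 4 of 38 rose, including Galc, the galactosylceramidase, to 11.9 ± 0.23 FPKM against 4.27 ± 0.44 FPKM under saline, Manba, a mannosidase, and Ids, iduronate sulfatase. Hexa, a hexosaminidase subunit, fell to 304 ± 61.6 FPKM against 471 ± 63.6 FPKM. Of 17 membrane proteins 3 rose, among them Clcn7, a chloride-proton exchanger, and its partner subunit Ostm1, and none fell. Loss of Clcn7 or Ostm1 is known to cause osteopetrosis.

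The vacuolar ATPase, the pump that acidifies the lysosome, went the other way for most of its called subunits: 5 of 16 fell and 1 rose, against 4.46% and 13.6% of all genes tested. Atp6v1f fell to 90.6 ± 11.3 FPKM against 181 ± 43.0 FPKM, Atp6v1e1 fell to 42.9 ± 6.46 against 78.8 ± 18.5 FPKM, and Atp6v0e fell to 100.4 ± 7.49 against 166 ± 29.7 FPKM. Atp6v0a2 rose to 74.6 ± 7.43 FPKM against 25.9 ± 8.34 FPKM. Of 13 sorting and transcription factors 3 rose, namely Gnptab, which builds the mannose 6-phosphate tag, and the sorting proteins Sort1 and Gga3, and 1 fell, namely Gnptg, the partner subunit of Gnptab. Transcripts of the 11 genes that rose had a median of 4439 bases and those of the 7 that fell a median of 2249 bases. Of the 10 tested genes among other cathepsins and cystatins 4 had a positive difference, and none passed the test.

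Disease-associated microglial genes, a program in which Cst7 and several cathepsins are also counted, had 4 of 18 lower and 1 higher under fixed morphine, against 4.46% and 13.6% of all genes tested. B2m, the light chain of class I histocompatibility molecules, fell to 802 ± 113 FPKM against 3446 ± 407 FPKM, Tyrobp to 868 ± 112 against 2489 ± 826 FPKM, and its receptor partner Trem2 to 483 ± 135 against 1179 ± 302 FPKM. Csf1 rose to 8.62 ± 2.18 FPKM against 1.63 ± 0.80 FPKM (SD, n = 4 each throughout). The longest annotated transcripts of B2m, Tyrobp, Trem2 and Csf1 have 860, 597, 4784 and 4176 bases, in that order. The longest need not be the one expressed, and the part of length was not tested.

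Escalating morphine was compared with escalating saline in the same fit. No gene of the set passed the test, as was the case for all but 4 of the 11759 genes (0.034%). Cst3 had 15103, 42604 and 40240.2 FPKM in the morphine_escalating libraries and 40841, 43398 and 45929.6 FPKM in the saline_escalating ones. Replicate 1 alone lay far below, and the difference was -0.55 ± 0.46 with an adjusted p in limma of 0.546. The effect of fixed morphine less that of escalating morphine was -1.32 ± 0.61, and the test of that difference gave an adjusted p in limma of 0.421. Without replicate 1 of morphine_escalating the value was -1.81 and the adjusted p 0.0461. All 13 neutrophil markers had negative differences here too, with sums of 3406 to 13777 FPKM under escalating morphine and 8141 to 63164 FPKM under escalating saline, and their part was not tested.

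The proteases Ctsb, Ctsl, Ctsz and Lgmn were higher in every escalating morphine library than in any of its saline controls, 4 of 10 genes against 18.3% of all genes tested. Ctsb, an endopeptidase with carboxypeptidase activity, had 756, 622 and 511 FPKM under escalating morphine and 362, 500.2 and 411 FPKM under saline. Its difference was 0.56 ± 0.24 with an adjusted p in limma of 0.228. Lgmn had 1674, 2149 and 1608 FPKM under escalating morphine and 1329, 1527 and 1062 FPKM under saline, a difference of 0.48 ± 0.24 with an adjusted p in limma of 0.298. Ctsz had 1002, 911 and 833 FPKM against 680, 775 and 755 FPKM, and Ctsl, the major cysteine endopeptidase with Ctsb, had 454, 599.6 and 483 FPKM against 408, 451 and 409 FPKM. The groups of these 4 genes do not overlap, yet with 3 libraries a side no difference passed the test. With the naive libraries in place of saline, the difference of Ctsb was -0.083.

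The kinds of control were compared because all 9 serve as the baseline for the injuries. Cst3 had 41317 to 65263 FPKM in the 4 saline_fixed libraries and 40841 to 45929.6 FPKM in the 3 saline_escalating ones, against 17341 and 16975 FPKM in the naive ones. Every saline library lay above both naive ones. The differences from naive were 1.55 ± 0.48 for fixed saline and 1.34 ± 0.51 for escalating saline, with adjusted p values in limma of 0.148 and 0.258. Without the 3 libraries of few genes, which enter this fit only through the shared spread, the value for fixed saline was again 1.55 and its adjusted p 0.0365.

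On each schedule 6 of 10 genes did not overlap between saline and naive libraries, against 28.5% of all genes tested for fixed and 33.9% for escalating saline. Cst3 and Ctss were higher and Ctsb, Ctsc and Ctsh lower in both saline groups, although under TPM rescaling the difference of Ctss for fixed saline was -0.036. Ctsh had 244 to 318 FPKM under fixed saline and 307 to 376 FPKM under escalating saline, against 494 and 423 FPKM in the naive libraries. Its difference for fixed saline was -0.73 ± 0.25 with an adjusted p in limma of 0.201. Ctsc had 125 to 195 FPKM and 144 to 194 FPKM in the saline groups, against 237 and 241 FPKM in naive mice. Lgmn was higher under fixed saline only, at 1415 to 1952 FPKM against 1222 and 1165 FPKM, and Ctsz lower under escalating saline only, at 680 to 775 FPKM against 865 and 894 FPKM, and neither was set against the other schedule in a test. None of these differences passed the test, while 64 genes (0.544%) were called for fixed and 18 (0.153%) for escalating saline. The 2 comparisons share the naive libraries.

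Transcript length ran the opposite way here: the median difference of fixed saline from naive was 0.63 in the shortest bin of genes and -0.32 in the longest. All 13 neutrophil markers had positive differences on both schedules, and their sums were 7404 to 28973 FPKM in saline_fixed, 8141 to 63164 FPKM in saline_escalating, and 8788 and 5707 FPKM in naive libraries. The part of either in the levels of Cst3 was not tested.

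After nerve injury each group was compared with the 9 controls, and no gene of the set passed the test in any of the 7 comparisons. Called genes were few among all genes as well, at 24 (0.204%) in SNT_7dpi, 2 (0.017%) in SNT_1dpi, 1 (0.0085%) in CCI_2dpi and 0 in the other 4, where 275 to 1146 genes had an unadjusted p under 0.05. The controls had Cst3 at 16975 to 65263 FPKM with a median of 43398 FPKM, so their own spread was wide. All 7 comparisons share these controls.

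CCI and SNI libraries had Cst3 in its lower range, as did the naive controls. In CCI_7dpi it was at 10120.4 and 13831 FPKM, below every control, with a difference of -1.67 ± 0.55 and an adjusted p in limma of 0.314. It was the 1 gene of 10 that did not overlap with the controls, against 9.33% of all genes tested. With saline controls only, all at 40841 FPKM or more, the difference was -1.99 and the adjusted p in limma 0.0382. With naive controls only, at 17341 and 16975 FPKM, it did not pass the test. In CCI_2dpi Cst3 was at 17870.0 and 12793 FPKM, within reach of the naive libraries, with a difference of -1.32 ± 0.55 and an adjusted p in limma of 0.423. In SNI_7dpi it was at 14299 and 20827 FPKM, on either side of the naive libraries, with a difference of -1.13 ± 0.55. The median differences of the shortest and longest bins of genes in CCI_7dpi were -0.36 and 0.44. Neutrophil markers were lower in the same libraries: 13 of 13 had negative differences in CCI_2dpi (median -1.49), and all but 1 did in CCI_7dpi (-1.14) and in SNI_7dpi (-0.93), with none called. They summed to 3084 to 7973 FPKM in the 4 CCI libraries and to 5981 and 9445 FPKM in SNI_7dpi, against 5707 to 63164 FPKM in the controls. Their part in the levels of Cst3 was not tested.

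Ctsc and Ctsh stood on the other side. In CCI_2dpi Ctsc was at 360.2 and 350 FPKM, above all controls at 125 to 241 FPKM, with a difference of 1.00 ± 0.40 and an adjusted p in limma of 0.422. Ctsz was also above all controls there, at 1163 and 1095 FPKM against 680 to 1074 FPKM, so that 2 of 10 genes did not overlap, against 10.3% of all genes tested. Ctsh was at 443 and 580.5 FPKM in CCI_7dpi and at 475 and 632 FPKM in SNI_7dpi, against a control median of 318 FPKM and a control maximum of 494 FPKM. Among the controls, the naive libraries were at 494 and 423 FPKM and the saline ones at 376 FPKM or less. The Ctsh differences of 0.62 ± 0.27 and 0.73 ± 0.27 had adjusted p values in limma of 0.443 and 0.999. Ctsd and Ctsb had their highest values of all 30 libraries in replicate 2 of SNI_7dpi, at 8946 and 922 FPKM, while replicate 1 had 5426 and 532 FPKM.

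SNT libraries had Cst3 in its upper range, with 1 exception at 7 dpi. Day 1 had 94006 and 64466 FPKM, day 2 had 46189 and 95123 FPKM, day 4 had 46008 and 39503 FPKM, and day 7 had 66554 and 16911 FPKM. The 3 highest of all 30 libraries were replicate 1 at 1 dpi, replicate 2 at 2 dpi and replicate 1 at 7 dpi, which are also the 3 with the fewest detected genes. The differences of Cst3 from the controls on days 1, 2 and 7 were 1.05, 0.82 and -0.17, and without those 3 libraries, which leaves 1 on each of these days, they were 0.78, 0.29 and -1.16; none passed the test either way. All 13 neutrophil markers had negative differences on each of the 4 days, with medians from -1.99 at 1 dpi to -0.74 at 7 dpi. In replicates 1 and 2 they summed to 2033 and 13544 FPKM on day 1 and to 3310 and 20979 FPKM on day 2. On day 4 the sums were 7073 and 7358 FPKM, and on day 7 they were 19341 and 2822 FPKM. The part of these cells in the levels of Cst3 was not tested. The Cst3 values of the pair at 7 dpi lay in different ranges, and the test of the 4 days gave an adjusted p in limma of 0.668, with 1 gene of 11759 called (0.0085%). Ctss was at 8023 and 7461 FPKM at 4 dpi, above all controls at 4861 to 7358 FPKM. It was the 1 gene that did not overlap, against 3.55% of all genes tested, with a difference of 0.34 ± 0.32. In SNT_2dpi Ctsd was at 5287 and 1835 FPKM, the second being the lowest of the 30 libraries, and the difference of -0.81 ± 0.37 had an adjusted p in limma of 0.676. That library was also lowest for Ctsb, Ctsc, Ctsh, Ctsz and Lgmn, and is 1 of the 3 with few detected genes. Without those 3 libraries the difference of Ctsd was -0.051. Cst7 was at 23.4 and 16.1 FPKM in SNT_7dpi, against 6.68 to 18.4 FPKM in the controls, a difference of 0.60 ± 0.37.

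**Figure D5:**
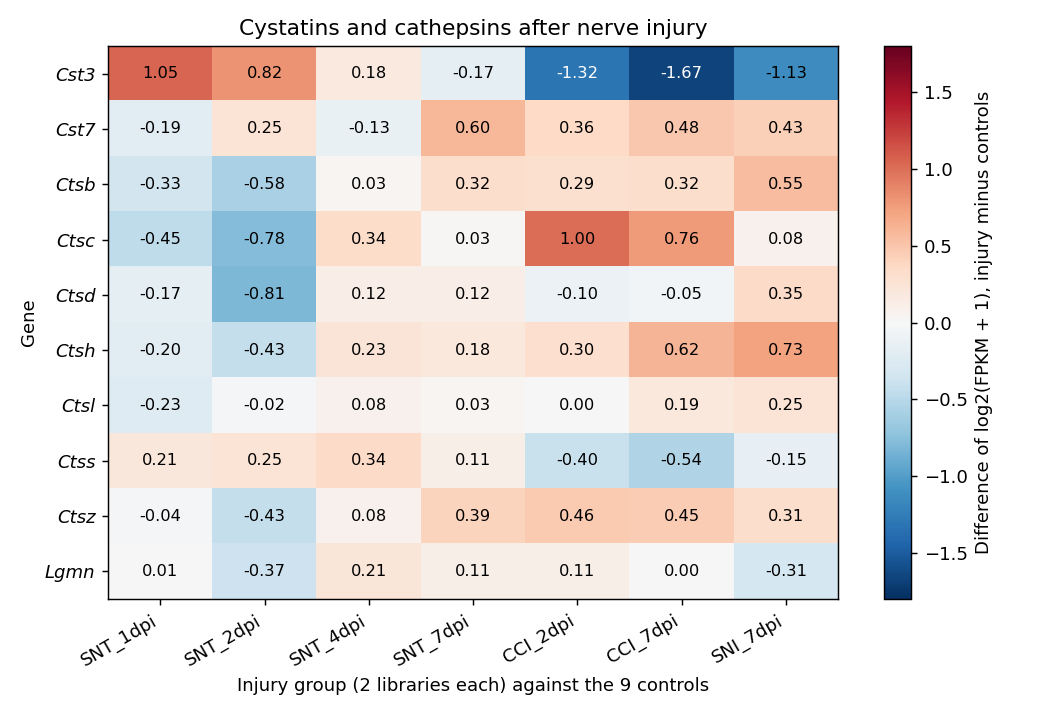
Difference of log2(FPKM + 1) between each injury group (columns, 2 libraries each) and the 9 controls for the 10 genes (rows), with the value in each cell; red is higher and blue lower after injury. Cst3 runs from 1.05 in SNT_1dpi to -1.67 in CCI_7dpi, and none of the differences passed the test.

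CCI was set directly against SNT over their shared days, 2 and 7 dpi. Cst3 was at 17870.0, 12793, 10120.4 and 13831 FPKM after CCI and at 46189, 95123, 66554 and 16911 FPKM after SNT. A single SNT library, replicate 2 at 7 dpi, lay within the CCI range, and the difference was -1.82 ± 0.50 with an adjusted p in limma of 0.106. Ctsc was at 360.2, 350, 389 and 232.5 FPKM after CCI and 170.3, 61.9, 96.2 and 336 FPKM after SNT, a difference of 1.26 ± 0.36 with an adjusted p in limma of 0.114. Ctsh was higher by 0.59 ± 0.25 and Ctss lower by -0.65 ± 0.29 in CCI, with adjusted p values in limma of 0.192 and 0.205. None of the 10 genes was called, nor was any of the 11759, of which 2643 had an unadjusted p under 0.05. Without replicate 2 of SNT_7dpi, 3 genes of the set passed the test, namely Cst3 at -2.31, Ctsc at 1.71 and Ctss at -0.83. Without the 3 libraries of few genes the values were -1.06 for Cst3 and 0.45 for Ctsc, with an adjusted p of 1 for both.

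Across the 30 libraries the genes split by whether they followed Cst3. Ctss ran with it (Spearman's rho 0.826), and Ctsc (-0.794), Ctsh (-0.663), Ctsb (-0.554) and Ctsz (-0.534) ran against it. Cst7 had a rho of -0.278, and Ctsd, Ctsl and Lgmn lay between -0.108 and -0.028. Ctsb and Ctsd varied together, with a rho of 0.768, and of 0.904 once each library was taken as its deviation from its group mean. On that scale Ctsc and Lgmn had a rho of 0.677. With Cst3, on the same scale, Ctsc kept a rho of -0.665 and Ctss one of 0.600, while Ctsz had -0.339, Ctsb -0.245 and Ctsh 0.025. For Cst7 the sign turned, to 0.240. The points share libraries, and all values of a library share its depth and its scaling, so these are descriptions.

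Among the 6674 genes whose mean reached 5 FPKM, those most like Cst3 were Rgs10 (rho 0.964), Rabac1 (0.929) and Trem2 (0.926). Among those most like Ctsb were Adgre1, which encodes the macrophage antigen F4/80 (0.919), and Abcb4 (0.896). Most like Ctsd were Gm2a, the GM2 ganglioside activator (0.821), Lamp1, a lysosomal membrane protein (0.790), and P2ry12, a microglial purine receptor (0.773). Ctsl was closest to Grn, the progranulin gene (0.756), and Ctss to B2m (0.892). Ctsc was closest to Cul2 (0.921), Ctsh to Fbxo33 and Rnf139 (0.845 each), Ctsz to Lrpap1 (0.865) and Lgmn to Wbp2 (0.822). Cst7 had no close partner, with Ncaph highest at 0.615.

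The likeness to Cst3 went with transcript length. The median rho with Cst3 was 0.557 in the shortest bin of genes and -0.636 in the longest. The 100 genes most like Cst3 had a median of 1091.5 bases and the 100 least like it a median of 4965 bases, against 3063 bases for all. Whether length shaped the libraries or the genes differ for another reason was not tested.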

How the data were processed

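The authors deposited 1 table of FPKM values per gene symbol and library. Per the submitters' processing notes, the build was mm10 and the tools were Cufflinks 2.2.1, featureCounts 1.4.6, HISAT2 2.0.5.1 and DESeq2, with no statement of which one made the FPKM values. The annotation used is not given in the sources used here. The 826 rows that share 281 repeated symbols were left out, and genes with at least 1 FPKM in at least 2 of 30 libraries were tested (11759). Values were taken as log2(FPKM + 1), which understates the change of low genes, and compared two-sided in limma 3.58.1 (R 4.3.3, trended variance), with Benjamini-Hochberg adjustment over all tested genes at 0.05. Injury groups and the 9 controls entered 1 fit, morphine and saline groups another, and naive comparisons a fit of all libraries. The members and lists were chosen with earlier results of these data known. All 10 members were read in every comparison; from other lists, called genes whose mean reached 5 FPKM on one side were named, up to 3 per direction by size, and for likeness up to 3 genes per member. Positions and transcript lengths come from GENCODE M21, and upstream sequences from RefSeq. The limma procedure was tested on simulated data. Figures were drawn with Python 3.11.15, pandas 2.3.3 and matplotlib 3.10.9. Some genes that the naming rule selects are not reported here.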

Additional observations from a re-analysis of the deposited data

Results flagged for a closer look

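The 10 genes were examined in morphine_fixed, in saline_fixed and in the 9 controls as 1 set. Of these 30 combinations, 3 held 1 library far from the others; chance alone gives about 1 in 20. Cst3 in replicate 1 of morphine_fixed was at 18574.5 FPKM, against 11845.5 to 12708.5 FPKM in the other 3 libraries of the group. It was the closest of the 4 to the saline libraries, all of which were at 41317 FPKM or more. Cst7 in replicate 3 of saline_fixed was at 6.68 FPKM, against 15.6 to 18.4 FPKM in the others, and this was its lowest value in the 30 libraries. Ctss in replicate 5 of saline_fixed was at 5424 FPKM, against 6530.1 to 6771 FPKM in the others, and that library had the highest Cst3 of its group.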

How the results depend on the processing

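Without reads, replicate precision is set by 2 to 4 libraries a group, and depth is unknown. Of the 10 genes, the number called for fixed morphine against fixed saline was 1 (Cst3). It was 0 without the filter, 2 under quantile normalization (Ctsc and Ctsh), 4 under TPM rescaling, 3 under TPM rescaling without Cst3, 4 with array weights and 0 with naive libraries in place of saline; the last and the rescaling without Cst3 were chosen after seeing the data. The cause was not tested, except that quantile normalization fixes the top gene. Libraries that share a replicate number showed little likeness (r of -0.274 to -0.049 for 2 pairs under fixed morphine and saline, and over 0.1 in 4 of 28 others). Only these 2 pairs share a number under fixed morphine and saline. The saline libraries are numbered on from the naive ones and each morphine group from its own start, so a shared number need not pair libraries. With the replicate number as a block, the fixed morphine count was 0, with Cst3 at -1.75 and an adjusted p of 0.483, and 0 of 11759 genes were called; escalating contrasts could not be fitted with the block. Counts that were 0 became, with array weights, 2 for CCI_7dpi, 1 for fixed against escalating effect, 2 for fixed saline and 1 for escalating saline against naive, and 1 for CCI_7dpi with saline controls only and 1 for fixed saline without the 3 libraries of few genes.

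Leaving out 1 library gave 1 to 2 for fixed morphine (Ctsc added without morphine_fixed replicate 1), 0 to 3 for CCI against SNT (3 without SNT_2dpi replicate 1 or SNT_7dpi replicate 2), 0 to 2 for SNT_2dpi (2 without its replicate 1, which rests on replicate 2 alone, a library of few genes assumed to vary like the other groups) and 0 to 1 for fixed against escalating effect (without morphine_escalating replicate 1). It gave 0 throughout in the other 10 comparisons. Cst3 under fixed morphine was past the threshold in all 8. Over all genes, the calls for fixed morphine numbered 2119, between 757 and 2163 with 1 library left out and between 0 and 4348 otherwise. Signs turned for Ctss under fixed morphine (0.070, quantile normalization), Ctss under fixed saline (-0.036, TPM rescaling), and, with naive in place of saline, Ctsh (-0.15) and Ctsb (-0.083) under fixed and escalating morphine in that order. Of the 107 differences not printed, 208 of 2313 recomputed values had the opposite sign and 3 passed the threshold.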
